A study of Mus musculus with 3 samples.

Results

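The genes described here are 97 genes whose products are part of the respiratory chain and the ATP synthase of mitochondria, out of 32285 genes in the count tables. The symbols used miss some chain genes, among them Cyc1, Cycs and Ndufab1, which are described apart. They were taken by symbol: Nduf genes of complex I, Sdha to Sdhd of complex II, Uqcr genes of complex III, Cox4 to Cox8 genes of complex IV, Atp5 genes of complex V, and the mt- genes for subunits of complexes I, III, IV and V. Ndufa4l2 was left out, and Ndufa4 is counted with complex IV, where its product is known to sit. Of the 97 genes, 84 lie in the nuclear genome and 13 in the mitochondrial genome.

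Cells of 3 kinds of aggregate grown from mouse embryonic stem cells of the E14tg2a strain were profiled as 1 library each with 3' single-cell RNA sequencing. All came from iGATA cells, in which doxycycline switches on a GATA4 transgene. BELAs (bilayered embryo-like aggregates) were made from clone C6, which received doxycycline (0.5 µg/ml) over 8 h in 2i and LIF, then 16 h in N2B27 without it, and were collected after 3 days in N2B27, seeded at 30000 cells per cm2. VE cysts were made from the same clone with the same first 8 h, but kept doxycycline for the next 16 h, when FGF4 (at 10 ng/ml) and heparin (at 1 µg/ml) were present, as they were again over the last 3 days. Epi cysts were grown in matrigel, for 1 day in 2i and LIF and 3 days in N2B27, without doxycycline. BELAs and VE cysts were picked by hand and pooled, and structures with a visible Epi-like core were avoided when VE cysts were picked, while Epi cysts were recovered on ice from matrigel. Aggregate type, doxycycline, medium, matrix and library therefore cannot be told apart.

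Cells with at least 4000 genes and at most 10% of UMIs (unique molecular identifiers, 1 per captured mRNA molecule) from mt- genes were kept. A cell was called VE (visceral endoderm) if the UMIs of Gata6, Sox17, Dab2 and Cubn exceeded those of Pou5f1, Sox2, Nanog and Fgf4, and Epi (epiblast) otherwise. This left 542 VE and 868 Epi cells of BELAs, 656 Epi cells of Epi cysts, and 577 VE and 48 Epi cells of VE cysts. The single VE cell of Epi cysts was not used, and 5 cells with equal sums were counted as Epi. The libraries held 126625916, 40962566 and 39793263 UMIs in kept cells, and the median depth of the 5 groups lay between 56914 and 90251 UMIs per cell. The VE markers summed to 2842 and 3003 CPM in VE cells of BELAs and VE cysts, where CPM counts a gene's UMIs per 1000000 UMIs pooled over the group, and the Epi cells of these libraries held 0.816% and 0.549% of that level. The Epi markers in VE cells stood at 6.68% and 2.32% of their level in Epi cells. Since these same markers made the split, their low level in the other lineage follows in part from the rule. VE cells also carried genes known from parietal endoderm, whose 12 listed members summed to 9136 and 23369 CPM in the VE cells of BELAs and VE cysts, against 201 to 245 CPM in the 3 Epi groups. Lists for 6 other kinds of cell (primitive streak and mesoderm, blood and endothelium, fibroblasts, neural cells, trophoblast and germ cells) each summed to at most 420 CPM in any group. The highest sums were those of trophoblast, at 420 and 387 CPM in the VE groups and 39.0 to 56.9 CPM in the Epi groups, and fibroblast genes reached 180 CPM in VE cells of VE cysts while neural genes reached 216 CPM in Epi cysts. Of the 55 genes in the 6 lists, 14 had a mean of at least 5 CPM, and 8 of them were at least 1.5-fold higher and 4 lower in VE cells of BELAs, and 3 higher and 5 lower in VE cysts. Of all genes above that mean, 23% were higher and 20.8% lower in BELAs, and 31.5% and 22% in VE cysts. In BELAs, 3 of 3 trophoblast and 3 of 4 streak and mesoderm genes were higher and 3 of 3 neural genes lower. In VE cysts, 1 trophoblast gene was higher, and 1 streak and mesoderm gene and 3 neural genes were lower. The label VE follows from the 4 markers of the rule, and the part of these other genes in the results was not tested.

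The respiratory chain passes electrons from NADH through complex I, or from succinate through complex II, to ubiquinone, then through complex III and cytochrome c to complex IV, which reduces oxygen. Complexes I, III and IV pump protons across the inner mitochondrial membrane, and complex V uses the gradient to make ATP. Complex II is encoded entirely in the nucleus, and the other complexes are assembled from subunits of both genomes. The mitochondrial genome is transcribed from both strands into long precursors that are cut into mRNAs, so that its genes do not have separate promoters. Pluripotent cells are known to rely strongly on glycolysis, and visceral endoderm is an absorptive epithelium with much endocytosis.

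A pair of mitochondrial genes shares bases, and the shared stretch is shown because molecules read within it cannot be assigned to 1 gene. At chrM:7927-7969 (GRCm38, plus strand) the end of mt-Atp8 and the start of mt-Atp6, both subunits of complex V, overlap by 43 bases. Capitals mark the start codon of mt-Atp6 and the stop codon of mt-Atp8.
overlap of mt-Atp8 and mt-Atp6: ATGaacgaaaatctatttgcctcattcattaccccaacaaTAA
The other overlaps were 7 bases between mt-Nd4l and mt-Nd4, 1 base between mt-Atp6 and mt-Co3, and 14 bases between mt-Nd5 and mt-Nd6, which lie on opposite strands. Outside the overlap, 6 mitochondrial genes (mt-Co1, mt-Co2, mt-Atp6, mt-Co3, mt-Nd3 and mt-Nd4l) and 18 nuclear members had a stretch of at least 90 bases at 98% identity or more with another annotated gene within the last 300 bases of their transcripts. Most of these other genes, 30 of 34, were annotated pseudogenes, and the values of the 24 members are uncertain to the extent that reads could be split.

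The nuclear genes are read from many separate promoters. RefSeq (GRCm38.p6) gave a start for 67 of the 84 nuclear members, with 72 windows of 250 bases before to 50 bases after a start. The letters CGCATGCG, the core of the motif of NRF1, a transcription factor known to bind genes of the chain, were found on either strand in 9 of the 72 windows (12.5%) and in 1.87% of all 32851 windows of the same length. The 9 genes were Atp5g2, Atp5j, Atp5k, Atp5l, Cox6a1, Ndufa11, Ndufa8, Uqcr11 and Uqcrc1. The letters AAGATGGC of YY1 were found in 12.5% of the member windows and 2.75% of all, CCGGAAGT of ETS factors in 6.94% and 3.89%, and GGGCGGGG of SP1 in 15.3% and 17.6%. In VE over Epi cells of BELAs, the median log2 ratio was 0.20 for members with the NRF1 letters, 0.08 with those of YY1, 0.02 with those of ETS factors and -0.18 with those of SP1, and between 0.13 and 0.17 for the members without each. These are matches of letters and not sites of binding. Ndufa3 has both the SP1 letters, before its start, and the YY1 letters, after its start and outside the bases printed below. The 250 bases before the start of 3 members that recur below are printed to show where these letters lie: Cox6a1 at chr5:115348959-115349208 (minus strand) and Atp5k at chr5:108434400-108434649 (minus strand) with the NRF1 letters in capitals, and Ndufa3 at chr7:3617123-3617372 (plus strand) with the SP1 letters in capitals.
Cox6a1: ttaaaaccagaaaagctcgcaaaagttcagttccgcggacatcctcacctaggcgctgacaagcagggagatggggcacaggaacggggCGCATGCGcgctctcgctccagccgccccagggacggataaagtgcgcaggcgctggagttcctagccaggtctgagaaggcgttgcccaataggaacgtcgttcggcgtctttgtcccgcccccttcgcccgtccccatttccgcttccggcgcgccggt
Atp5k: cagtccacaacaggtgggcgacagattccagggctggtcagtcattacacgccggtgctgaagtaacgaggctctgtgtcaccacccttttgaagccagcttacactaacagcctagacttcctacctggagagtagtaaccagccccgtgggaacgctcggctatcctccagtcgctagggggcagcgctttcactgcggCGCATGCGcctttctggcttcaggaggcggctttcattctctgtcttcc
Ndufa3: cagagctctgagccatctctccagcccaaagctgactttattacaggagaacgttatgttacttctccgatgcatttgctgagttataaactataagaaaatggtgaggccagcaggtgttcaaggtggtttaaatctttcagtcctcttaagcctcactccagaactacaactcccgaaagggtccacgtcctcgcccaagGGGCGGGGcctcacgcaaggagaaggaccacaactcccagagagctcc

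Transcripts of the mitochondrial genome took a larger share of UMIs in VE cells than in Epi cells, in both libraries that held both lineages, while the share of the nuclear members stayed within a narrow range in all 5 groups. The 13 mitochondrially encoded genes took 4.77% of UMIs in VE cells and 3.49% in Epi cells of BELAs, 3.23% in Epi cysts, and 5.57% in VE cells and 3.19% in Epi cells of VE cysts. All 3 Epi groups lay below both VE groups. The 84 nuclear members took 3.08%, 2.89%, 2.83%, 2.87% and 2.84% in the same order. The number of mitochondrial UMIs per nuclear UMI of the chain was thus 1.54 and 1.94 in VE cells of BELAs and VE cysts, and between 1.12 and 1.21 in the Epi groups.

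**Figure D1:**
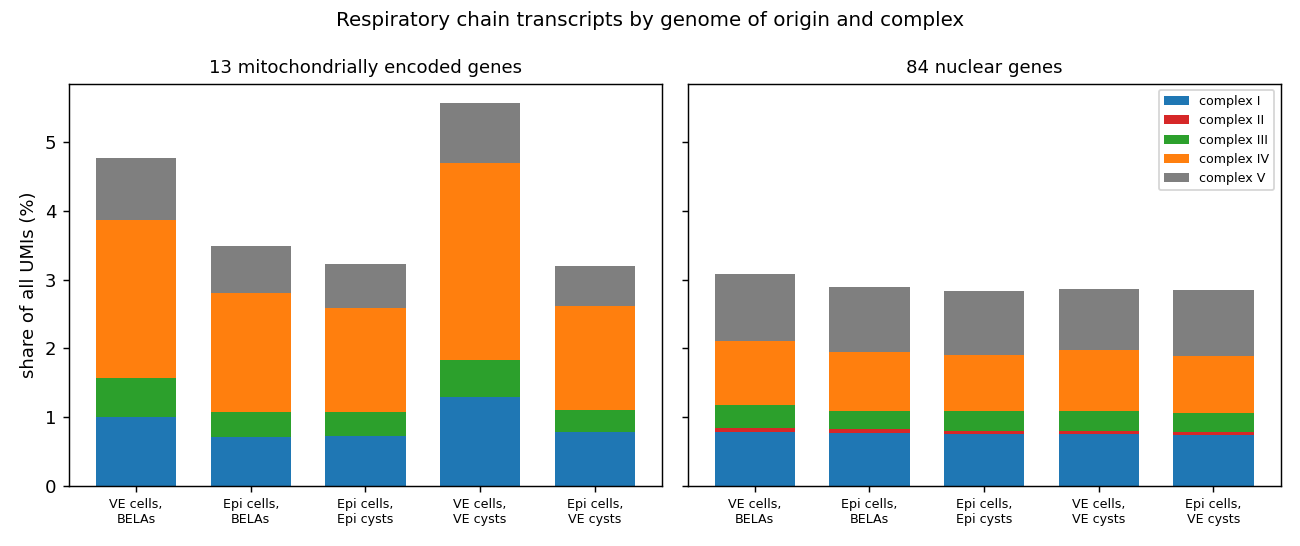
Bars give the share of all UMIs of a group (%) that came from the 13 mitochondrially encoded (left) and the 84 nuclear (right) genes of the chain, stacked by complex, in the 5 groups of cells. The mitochondrial bars reach 4.77% and 5.57% in the VE groups and 3.19% to 3.49% in the Epi groups, and the nuclear bars lie between 2.83% and 3.08% in all 5.

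With 1 library per kind of aggregate and cells that are not replicates, no difference was tested, and intervals below are exact 95% intervals that cover counting error only. The sum of the mitochondrial genes was 1.37-fold (1.36 to 1.37) higher in VE than in Epi cells of BELAs and 1.74-fold (1.73 to 1.75) higher in VE cysts. The sum of the nuclear members was 1.07-fold and 1.01-fold (1.00 to 1.02) higher. The direction of the nuclear sum depended on what it was divided by. Ribosomal protein genes took 29.2% of UMIs in Epi cells and 21.8% in VE cells of BELAs, and 28.4% and 18.4% in VE cysts. As a share of the UMIs outside mt- and ribosomal protein genes, the nuclear sum was 0.978-fold of the Epi level in VE cells of BELAs and 0.909-fold in VE cysts, and the mitochondrial sum was still 25.2% and 56.9% higher.

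Single cells showed the same order for the mitochondrial share. The median cell had 4.79% mitochondrial UMIs among VE cells and 3.43% among Epi cells of BELAs, 3.18% in Epi cysts, and 5.45% and 3.04% among VE and Epi cells of VE cysts. The lower quartile of VE cells of VE cysts, 4.74%, lay above the upper quartile of every Epi group, of which the highest was 4.06%. In BELAs the lower quartile of VE cells, 3.96%, lay just below the upper quartile of their Epi cells. The medians of the nuclear share ran from 2.80% to 3.03% over the 5 groups. In VE cysts the nuclear median was 2.80% in VE and 2.85% in Epi cells, the reverse of the order of the pooled sums. Across the cells of a group, which share library and depth effects, the mitochondrial share was compared with the nuclear share of UMIs outside mt- genes. These shares were nearly unrelated in BELAs and Epi cysts, with Pearson's r of 0.07 in VE and 0.02 in Epi cells of BELAs and -0.03 in Epi cysts. They were weakly related in VE cells of VE cysts, at 0.25, and in their 48 Epi cells, at 0.29. Spearman's coefficients were 0.03 and 0.07 in VE and Epi cells of BELAs and 0.06 in Epi cysts. In VE and Epi cells of VE cysts they were 0.19 and 0.13.

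**Figure D2:**
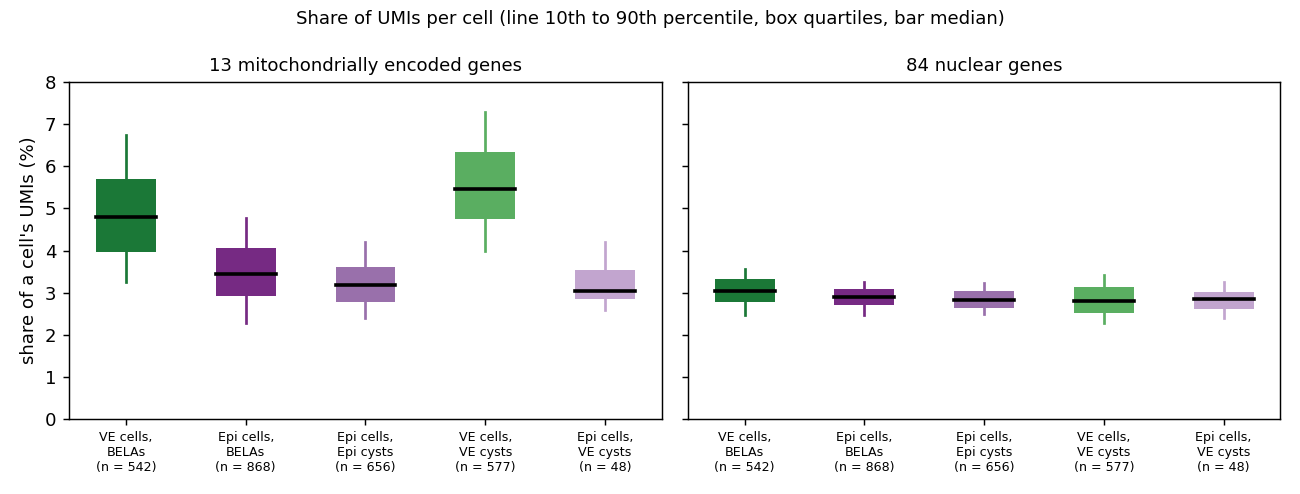
For each of the 5 groups, the share of a cell's UMIs (%) from mitochondrially encoded (left) and nuclear (right) genes of the chain is shown as median, quartiles and 10th to 90th percentile over cells. Median mitochondrial shares were 4.79% and 5.45% in VE groups and 3.04% to 3.43% in Epi groups, and the nuclear medians lay between 2.80% and 3.03%.

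The difference was also present within a band of depth and without the cap on mt- UMIs. Among cells of 50000 to 80000 UMIs, a band chosen after seeing the data, the mitochondrial share was 5.05% in VE cells and 3.49% in Epi cells of BELAs, 3.16% in Epi cysts and 5.59% in VE cells of VE cysts. The cap of 10% cuts off part of the measured sum itself, and by it alone 76 cells were lost from BELAs, 19 from Epi cysts and 21 from VE cysts. Without the cap, the log2 ratio of the mitochondrial sum in VE over Epi cells was 0.52 in BELAs, against 0.45 with it, and 0.84 in VE cysts, against 0.80. Genes known to respond to dissociation stress were also higher in VE cells, and the 12 listed summed to 495 and 305 CPM in VE and Epi cells of BELAs, 200 CPM in Epi cysts, and 530 and 263 CPM in VE and Epi cells of VE cysts. Their part in the result was not tested.

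Among single genes, a gene was called higher or lower when its levels differed at least 1.5-fold with 5 CPM added to each, among the 9657 genes with a mean of at least 5 CPM. The 92 members above that mean are 79 nuclear and all 13 mitochondrial genes. The other 5 are isoform genes of complex IV, Cox4i2, Cox6a2, Cox7b2, Cox8b and Cox8c. In BELAs 8 members were higher in VE cells, where 23% of all genes were, and 1 was lower, where 20.8% of all genes were. In VE cysts 16 members were higher, against 31.5% of all genes, and 3 were lower, against 22%. These counts are 8.7% and 1.09% of the members in BELAs and 17.4% and 3.26% in VE cysts. The median log2 ratio of the members was 0.19 in BELAs and 0.05 in VE cysts, beside -0.05 and 0.11 for all genes tested. Most members are abundant, and among the 2967 genes with a mean of at least 50 CPM, 90 of them members, the medians of all genes were -0.08 and -0.09. Members called higher in both libraries were mt-Nd4, mt-Cytb, Ndufa3, Cox7a1, Sdhd, Cox6a1 and Cox6b1, and Ndufa7 was called lower in both. Of the 79 nuclear members, 34 were higher in VE cells in both libraries by any amount, 24 were lower in both, and 21 had opposite signs. The shares of all genes called in both libraries, or with the same or opposite signs, are not given here. These overlaps are therefore not set against all genes.

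**Figure D3:**
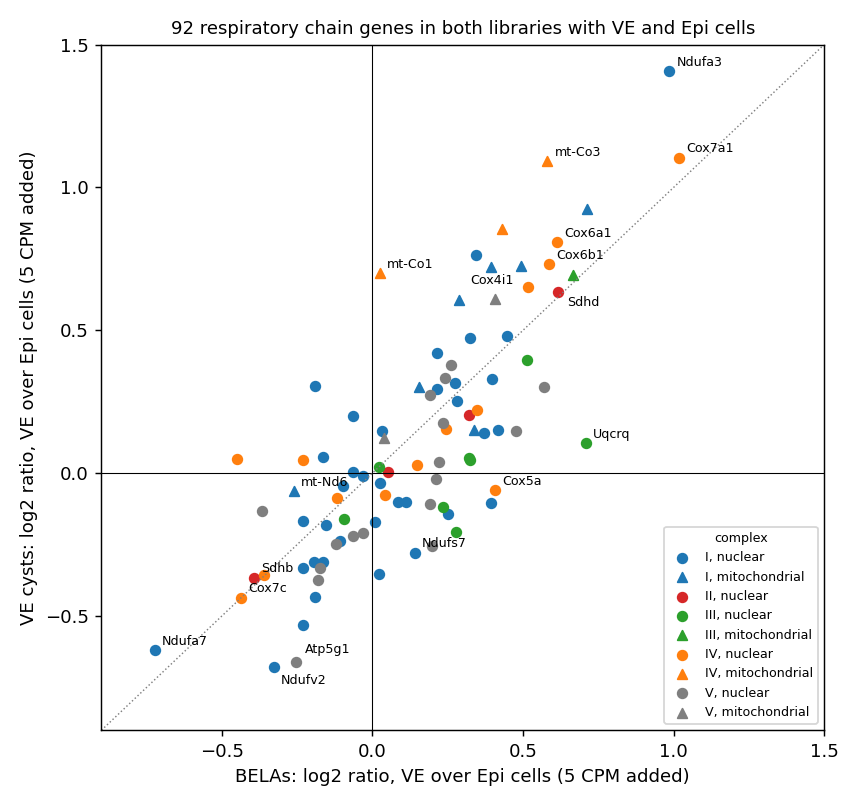
Each point is 1 of 92 genes of the chain, with the log2 ratio of VE over Epi cells (5 CPM added) in BELAs on the horizontal and in VE cysts on the vertical axis, coloured by complex, with triangles for mitochondrial genes. Ndufa3 and Cox7a1 stand at the upper right and Ndufa7 at the lower left, while Uqcrq and Cox5a lie far to the right of the dotted line of equal ratios and mt-Co1 and mt-Co3 above it.

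The mitochondrial genes did not differ as 1 block. In each library 12 of the 13 were higher in VE cells, with mt-Nd6 as the exception in both. In BELAs the highest ratios belonged to mt-Nd4, of the proton-pumping arm of complex I, to mt-Cytb, the cytochrome b of complex III, and to mt-Co3 of complex IV. The level of mt-Nd4 was 2693 CPM in VE and 1641 CPM in Epi cells of BELAs, 1993 CPM in Epi cysts, and 3230 and 1699 CPM in VE and Epi cells of VE cysts. The level of mt-Cytb was 5679 and 3576 CPM in BELAs, 3488 CPM in Epi cysts, and 5326 and 3289 CPM in VE cysts. In both genes the 2 VE groups lay above the 3 Epi groups, with VE over Epi ratios for mt-Nd4 of 1.64 (1.63 to 1.65) within BELAs and 1.90 (1.86 to 1.95) within VE cysts, and for mt-Cytb of 1.59 and 1.62 (1.59 to 1.65).

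The catalytic subunits of complex IV differed between the libraries. The gene mt-Co1, which carries the oxygen-reducing centre, stood at 4390 CPM in VE and 4319 CPM in Epi cells of BELAs, 3725 CPM in Epi cysts, and 6707 and 4125 CPM in VE and Epi cells of VE cysts. Its level was highest in the VE cells of VE cysts, and the VE over Epi ratio was 1.02 in BELAs and 1.63 in VE cysts. For mt-Co2 the ratios were 1.35 and 1.81, and for mt-Co3 the log2 ratios were 0.58 and 1.09. The level of mt-Co3 was 10374 and 6937 CPM in VE and Epi cells of BELAs, 7139 CPM in Epi cysts, and 14162 and 6644 CPM in VE and Epi cells of VE cysts. It made up 21.8% of mitochondrial UMIs in VE cells of BELAs and 25.4% in those of VE cysts, while mt-Co1 made up 9.21% and 12.0%. In the Epi groups mt-Co1 made up 12.4%, 11.5% and 12.9%, so that by this share the VE cells of BELAs were lowest.

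Of the remaining complex I genes, mt-Nd1, mt-Nd2 and mt-Nd3 had ratios of 1.41, 1.22 and 1.32 in BELAs and 1.65, 1.52 and 1.65 in VE cysts, and mt-Nd5 had 1.12 and 1.24. For mt-Nd4l they were 1.27 and 1.11. In complex V, mt-Atp6 had 1.33 and 1.53, and mt-Atp8 had 1.03 (0.982 to 1.08) and 1.10 (0.983 to 1.22), with intervals that include 1. In VE cells of BELAs mt-Atp8, which overlaps mt-Atp6, stood at 60.3 CPM beside 8983 CPM for mt-Atp6. How far the counts of overlapping genes stand for separate transcripts was not tested. The gene mt-Nd6 is the only member on the minus strand of the mitochondrial genome and was sparse. It stood at 11.7 and 15.1 CPM in VE and Epi cells of BELAs, 6.73 CPM in Epi cysts, and 31.8 and 33.4 CPM in VE and Epi cells of VE cysts, so that VE cells had 0.779-fold (0.706 to 0.860) of the Epi level within BELAs and 0.951-fold (0.799 to 1.14) within VE cysts, where the interval includes 1.

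**Figure D4:**
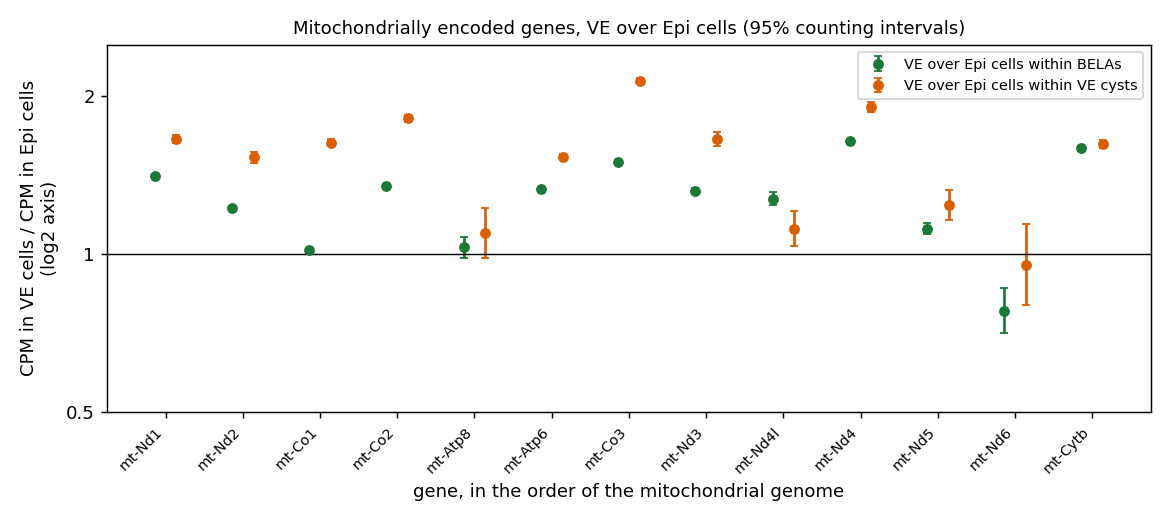
Points give the ratio of CPM in VE over Epi cells (log2 axis) of the 13 mitochondrial genes in the order of their genome, in BELAs (green) and VE cysts (orange), with 95% counting intervals. Of the 13, 12 lie above 1 in each library and mt-Nd6 lies below, and mt-Co3 is the highest in VE cysts.

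A comparison of the pair of libraries within each lineage was added after these values were seen. In VE cysts over BELAs, mt-Nd3 was 2.30-fold (2.27 to 2.33) higher in VE cells and 1.83-fold (1.77 to 1.89) higher in Epi cells, and mt-Nd6 was 2.71-fold (2.46 to 2.99) and 2.22-fold (1.85 to 2.64) higher. For mt-Atp8 the ratios were 1.56 and 1.47. These genes were higher in that library in both lineages. Past 1.5-fold in both lineages were 2 of 92 members (2.17%), mt-Nd3 and mt-Nd6, and 70 of all 9657 genes (0.725%). In contrast, mt-Co1 was 1.53-fold higher in VE cells of VE cysts and 0.955-fold in their Epi cells, and mt-Co3 was 1.37-fold and 0.958-fold. The library and the conditions of culture cannot be told apart.

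The nuclear subunits of complex I, the entry point for NADH, summed to nearly the same share in all groups, with a VE over Epi ratio of 1.01 in BELAs and 1.02 in VE cysts, but single members spread widely. The accessory subunit gene Ndufa3 was at 139 and 67.9 CPM in VE and Epi cells of BELAs, 89.2 CPM in Epi cysts, and 221 and 80.1 CPM in VE and Epi cells of VE cysts. Both VE groups lay above all Epi groups, and the ratio within BELAs was 2.05 (1.98 to 2.13), and within VE cysts 2.75 (2.47 to 3.08). The accessory subunit gene Ndufa7 ran the other way, with 387 and 642 CPM in BELAs, 494 CPM in Epi cysts, and 369 and 570 CPM in VE cysts. Its VE level was 0.603-fold (0.593 to 0.613) and 0.648-fold (0.621 to 0.677) of the Epi level.

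When complex I was split after these values were seen, the 7 nuclear genes of its catalytic core, the module that holds the flavin and the iron-sulphur clusters, were mostly lower in VE cells. Of the 7, 5 were lower in BELAs and all 7 in VE cysts, and their median log2 ratios were -0.19 and -0.33. The 29 accessory genes had medians of 0.03 and 0.06, with 18 and 16 of them higher. Ndufv2, of the same core, was at 189 and 239 CPM in VE and Epi cells of BELAs and 238 CPM in Epi cysts. In VE and Epi cells of VE cysts Ndufv2 was at 142 and 230 CPM, so that the VE groups were lowest. Ndufs1, the largest core subunit, was 0.842-fold and 0.672-fold of the Epi level. The core subunit gene Ndufs7 was at 199 and 180 CPM in BELAs, 162 CPM in Epi cysts, and 126 and 153 CPM in VE cysts, and so was 1.58-fold (1.53 to 1.64) higher in VE cells of BELAs than of VE cysts. In that comparison all 7 core genes had the higher level in BELAs, and their median log2 ratio was 0.29, beside -0.11 for all genes tested and 0.05 for those with a mean of at least 50 CPM.

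The 4 genes of complex II, the only complex with no mitochondrial gene, differed by subunit. Sdhd and Sdhc encode the membrane anchors that bind ubiquinone. Sdhd was at 215 and 139 CPM in VE and Epi cells of BELAs, 147 CPM in Epi cysts, and 220 and 140 CPM in VE and Epi cells of VE cysts, and both VE groups were higher than all Epi groups, by 1.55-fold (1.51 to 1.59) and 1.57-fold (1.45 to 1.71) within the libraries. Sdhc was higher by 1.26-fold and 1.16-fold. Sdhb, the iron-sulphur subunit, was lower, with 117 and 155 CPM in BELAs, 130 CPM in Epi cysts, and 90.7 and 118 CPM in VE cysts, and ratios of 0.754 (0.731 to 0.778) and 0.766 (0.698 to 0.843). Sdha, the flavoprotein, lay between 92.0 and 115 CPM in all groups, with ratios of 1.04 and 1.00. The 4 subunits are joined in equal numbers in the complex, and their ratios ran from 0.754 to 1.55 in BELAs.

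Complex III carries electrons from ubiquinone to cytochrome c, and the sum of its nuclear genes was highest in the VE cells of BELAs. Their sum was 1.23-fold (1.22 to 1.24) higher in VE than in Epi cells of BELAs, with 7 of 8 genes higher, and 1.03-fold (1.01 to 1.05) higher in VE cysts, with 5 of 8 higher. Cyc1, the nuclear cytochrome c1 gene of complex III, is outside this sum and was lower in VE cells of both libraries, as given below. In VE cells the sum was 1.17-fold (1.17 to 1.18) higher in BELAs than in VE cysts. The small subunit gene Uqcrq differed most among them, with 756 CPM in VE cells of BELAs and 461 to 518 CPM in the other 4 groups. It was the only member called higher in VE cells of BELAs and not in VE cysts, with ratios of 1.64 (1.62 to 1.67) and 1.08 (1.03 to 1.13), and the difference between them was not tested. The core protein gene Uqcrc1 had ratios of 1.22 and 0.864. Uqcrh, a hinge subunit at the cytochrome c side, stayed between 502 and 539 CPM.

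In complex IV, cytochrome c oxidase, the nuclear subunits that have tissue-specific isoforms gave several of the called genes. Cox7a1, known as the form of heart and muscle, was at 32.0 and 13.3 CPM in VE and Epi cells of BELAs, 7.83 CPM in Epi cysts, and 35.2 and 13.7 CPM in VE and Epi cells of VE cysts. Both VE groups lay above the Epi groups, by 2.41-fold (2.23 to 2.62) and 2.57-fold (1.98 to 3.39). The broadly expressed partner Cox7a2 was far more even, between 508 and 567 CPM, with ratios of 0.920 and 0.942, and Cox7a2l, which helps join complexes III and IV, had 0.851 and 1.03.

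Other isoform pairs of complex IV were carried by the broadly expressed form. Cox6a1 was at 354 and 229 CPM in VE and Epi cells of BELAs, 271 CPM in Epi cysts, and 456 and 258 CPM in VE and Epi cells of VE cysts, a ratio of 1.54 (1.51 to 1.57) and 1.77 (1.66 to 1.88). Its muscle form Cox6a2 was at 1.40 CPM or less. Cox6b1 was at 722 and 479 CPM in BELAs, 507 CPM in Epi cysts, and 709 and 425 CPM in VE cysts, a ratio of 1.51 and 1.67. Its testis form Cox6b2 was at 51.1 and 71.5 CPM in BELAs, 68.3 CPM in Epi cysts, and 44.4 and 42.7 CPM in VE cysts, with ratios of 0.714 and 1.04. Cox4i1, the largest nuclear subunit, was higher in VE cells by 1.43-fold in BELAs and 1.57-fold in VE cysts, with levels of 1331, 928, 782, 1306 and 830 CPM in the order used above.

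The partner Cox4i2, known to respond to low oxygen, was sparse and lower in VE cells, with 0.514 and 3.81 CPM (28 and 275 UMIs) in VE and Epi cells of BELAs, 51 UMIs in Epi cysts, and 1.07 and 2.55 CPM (38 and 11 UMIs) in VE and Epi cells of VE cysts. Cox8b had no UMI in any group, and a floor of 3 UMIs per group stands for 0.0416 to 0.697 CPM. Cox8c and Cox7b2 stayed at or below 4.41 CPM. Cox6c and Cox7c, small subunits without isoform partners among the members, were lower in VE cells, with ratios of 0.778 and 0.738 in BELAs and 0.780 and 0.738 in VE cysts.

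Complex V, the ATP synthase, took the largest share of the nuclear sum in all 5 groups. With all UMIs as the denominator, its VE over Epi ratio was 1.04 in BELAs and, with 0.950 (0.940 to 0.959), on the other side of 1 in VE cysts. Outside mt- and ribosomal protein UMIs the whole nuclear sum was below the Epi level in both libraries, as given above. The opposite sides of 1 for complex V therefore depend on the denominator. The genes of the catalytic head Atp5a1 and Atp5b had ratios of 0.886 and 0.881 in BELAs and 0.793 and 0.770 in VE cysts. Atp5d, of the central stalk, was at 610 and 410 CPM in VE and Epi cells of BELAs, 366 CPM in Epi cysts, and 433 and 350 CPM in VE and Epi cells of VE cysts, and was higher in VE cells by 1.49-fold and 1.24-fold. The 3 genes that encode the same ring subunit c took different directions. Atp5g1 was at 508 and 607 CPM in BELAs, 532 CPM in Epi cysts, and 370 and 587 CPM in VE cysts, with its lowest level in VE cells of VE cysts and a ratio there of 0.630 (0.604 to 0.658). Atp5g2 had ratios of 0.775 and 0.913, and Atp5g3 had 1.18 and 1.13.

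Between Epi cells of BELAs and Epi cysts, which differ in the VE layer and also in doxycycline, matrix, medium and library, the chain was close to even. The mitochondrial sum was 1.08-fold and the nuclear sum 1.02-fold higher in BELAs. Of the 92 members, 1 was called higher, where 5% of all genes were, and 0 were called lower, where 3.49% of all genes were. The called gene was the sparse mt-Nd6, at 15.1 and 6.73 CPM. Among genes with a mean of at least 50 CPM, 0 of 90 members were called in either direction. The gene mt-Co2, at 6090 CPM against 4270 CPM in Epi cysts, was 1.43-fold (1.42 to 1.43) higher, and mt-Nd4 was 0.823-fold. Among nuclear members, the largest ratio in BELAs was that of Cox7a1, at 1.70 (1.49 to 1.93), which misses the call once 5 CPM are added. The complex I gene Ndufv3 followed at 1.48 (1.44 to 1.52), and the lowest were Atp5k of complex V, at 0.716 (0.703 to 0.729), Ndufa3, at 0.761 (0.729 to 0.795), and Atp5md of complex V, at 0.771 (0.757 to 0.785). The level of Atp5k was 340 and 347 CPM in VE and Epi cells of BELAs, and 485, 458 and 531 CPM in Epi cysts and in VE and Epi cells of VE cysts, so that both lineages of BELAs lay below all groups of the other libraries.

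VE cells of BELAs and VE cysts differ in the Epi core and also in the longer doxycycline, FGF4 and heparin of VE cysts. Between these groups the mitochondrial and nuclear sums took opposite directions. The parietal endoderm genes were lower in BELAs at 10 of the 11 measured, with the sums of 9136 and 23369 CPM given above, and their part in the result was not tested. The mitochondrial sum in BELAs was 0.855-fold (0.854 to 0.857) of that in VE cysts, with 10 of 13 genes lower, and the nuclear sum was 1.08-fold (1.07 to 1.08), with 53 of 79 genes higher. By complex, the mitochondrial sums were 0.771-fold in I and 0.799-fold in IV, but 1.07-fold in III and 1.04-fold in V. Called higher were 2 members, where 6.03% of all genes were, and called lower were 5, where 12.2% of all genes were. The genes called higher were Cox5a, a complex IV subunit on the matrix side, and Ndufs7. Cox5a was at 872 and 656 CPM in VE and Epi cells of BELAs, 576 CPM in Epi cysts, and 531 and 553 CPM in VE and Epi cells of VE cysts, with the VE cells of BELAs highest and a ratio of 1.64 (1.62 to 1.67). Called lower were Ndufa3, mt-Co1, mt-Atp8, mt-Nd3 and mt-Nd6. The balance depended on the scaling, since with levels scaled by the median ratio of all genes 11 members were higher and 2 lower.

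Genes that serve the chain were described from fixed lists, beside the 20.8% and 22% of all genes called lower in VE cells of BELAs and VE cysts and the 23% and 31.5% called higher. Of 24 genes above the mean of 5 CPM for upkeep, transcription and processing of mitochondrial DNA and RNA, 8 were lower and 2 higher in VE cells of BELAs, and 11 were lower and 2 higher in VE cysts, with median log2 ratios of -0.41 and -0.49. Called lower were thus 33.3% and 45.8% of them, and called higher 8.33% in each library. Tfam, which packages mitochondrial DNA and starts its transcription, was at 63.6 and 106 CPM in VE and Epi cells of BELAs, 117 CPM in Epi cysts, and 60.2 and 110 CPM in VE and Epi cells of VE cysts. Ssbp1, the mitochondrial single-strand binding protein, was at 142 and 314 CPM in BELAs, 286 CPM in Epi cysts, and 127 and 327 CPM in VE cysts. In both genes the VE groups lay below all Epi groups. The mitochondrial topoisomerase gene Top1mt had the opposite pattern, with 26.4 and 9.69 CPM in BELAs, 5.53 CPM in Epi cysts, and 21.4 and 4.64 CPM in VE cysts.

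The 78 genes of the mitochondrial ribosome, which translates only the mitochondrial mRNAs, had medians of -0.16 and -0.36, with 11 and 31 of them called lower in VE cells of BELAs and VE cysts and 1 and 4 higher, so that 14.1% and 39.7% were lower. The cytosolic ribosome had -0.41 and -0.62. Among 42 such assembly factors the medians were -0.10 and -0.01, with 3 higher and 6 lower in BELAs and 7 higher and 9 lower in VE cysts, so that 14.3% and 21.4% were lower. The 20 genes of the TCA cycle had medians of -0.15 and -0.19. Among 16 such regulators of the chain, 5 and 7 were lower, or 31.2% and 43.8%, and 0 and 2 higher. Nrf1 itself was at 27.6 and 52.1 CPM in VE and Epi cells of BELAs, 44.1 CPM in Epi cysts, and 33.6 and 51.6 CPM in VE and Epi cells of VE cysts.

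Chain genes that the symbols of the rule miss were lower in the VE cells of VE cysts. Cycs, the cytochrome c that carries electrons from complex III to complex IV, was at 345 and 449 CPM in VE and Epi cells of BELAs, 438 CPM in Epi cysts, and 178 and 444 CPM in VE and Epi cells of VE cysts. Cyc1, the cytochrome c1 of complex III, was at 254 and 309 CPM in BELAs, 303 CPM in Epi cysts, and 161 and 331 CPM in VE cysts. Both genes had similar levels in the 3 Epi groups, were lower in VE cells of BELAs and lowest in VE cells of VE cysts. With Ndufab1, the acyl carrier subunit of complex I, they summed to 959, 1154, 1134, 617 and 1161 CPM in the order used above. These genes are in none of the nuclear sums given above. With them the VE over Epi ratios of those sums would be lower, and ratios close to 1 in VE cysts may change direction.

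**Figure D5:**
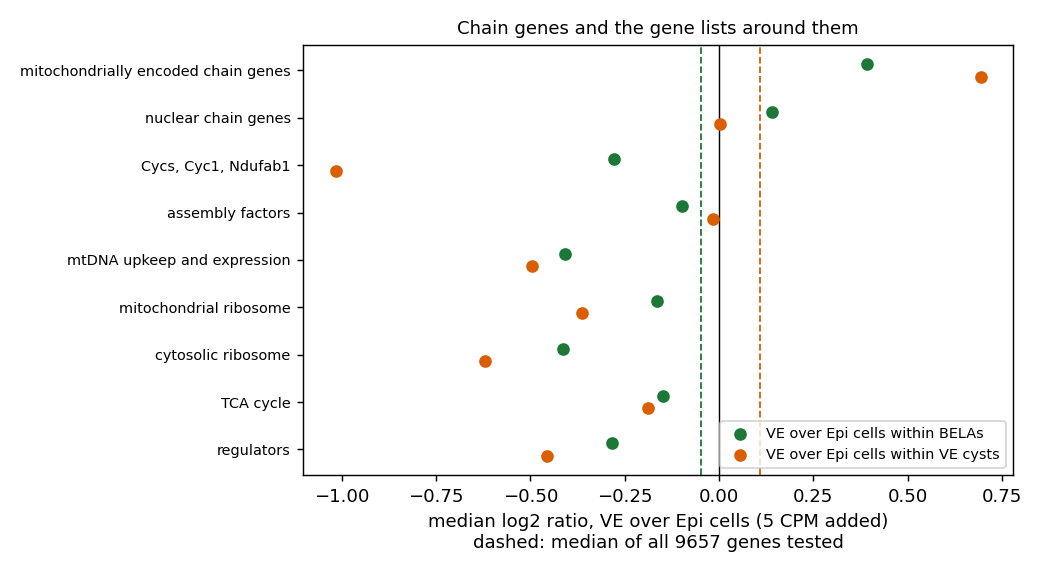
Points give the median log2 ratio of VE over Epi cells (5 CPM added) for the mitochondrially encoded and nuclear chain genes and for 7 gene lists around them, in BELAs (green) and VE cysts (orange), with dashed lines at the median of all 9657 genes tested. The mitochondrially encoded genes lie at 0.39 and 0.69, the nuclear members at 0.14 and 0.00, and the mitochondrial DNA and RNA list at -0.41 and -0.49.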

How the data were processed

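Raw UMI counts of 3 libraries were analysed. Per the labels and the study's methods, the authors aligned reads to mm10 and counted them with Cell Ranger 4.0.0, and the deposited counts were used as they stand. Cells were filtered and assigned to a lineage as described above, and UMIs were pooled per group (Python 3.11.15, scipy 1.17.1). Levels are CPM with exact Poisson intervals, and ratios have exact conditional binomial intervals, all at 95%. Pooling weights deep cells more. Genes were named by rule: all mt- genes, complex II, isoform families, and nuclear members at the ends of each comparison, up to 6 per end if called and otherwise 3. Further genes in the text were chosen after their values were seen. The members and lists were chosen with earlier results of these data known. Scrublet (scanpy 1.11.5) called 18, 16 and 3 kept cells as doublets, left out only as an alternative. Epi cysts shared 2 barcodes with BELAs and 1 with VE cysts, and BELAs and VE cysts shared 0. Positions and transcript ends are from GENCODE vM21, compared with blastn 2.17.0. Ratios and intervals were checked on simulated Poisson counts, the model that the intervals assume, so variation between cells or libraries was not covered. Alternatives covered the filters, the cap, CPM added, fold, denominators, scaling, thinning, doublets and cell weighting.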

Additional observations from a re-analysis of the deposited data

Results flagged for a closer look

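The ratios here are of VE over Epi cells with all UMIs as the denominator. Of the 92 members with a mean of at least 5 CPM, 10 moved in opposite directions in BELAs and VE cysts. So did the sum of the nuclear complex V genes, and each ratio differed from 1 beyond its counting interval in both libraries. Outside mt- and ribosomal protein UMIs, the sum of all nuclear members was 0.978-fold in BELAs and 0.909-fold in VE cysts, against 1.07-fold and 1.01-fold over all UMIs. Ratios close to 1 therefore depend on the denominator for their direction. The share of all 9657 genes that moved in opposite directions in this way is not given here, so the count of 10 is not set against it. The difference between the libraries was not tested, and the Epi group of VE cysts held only 48 cells. In complex I, Ndufb6 had a ratio of 1.32 in BELAs and 0.928 in VE cysts, Ndufb10 had 1.20 and 0.902, and the core subunit gene Ndufs7 had 1.11 and 0.819. The complex I genes Ndufa6 and Ndufb9 ran the other way, with 0.875 and 0.955 in BELAs and 1.24 and 1.15 in VE cysts. In complex III, Uqcrc1 had 1.22 and 0.864, and Uqcrfs1, the iron-sulphur protein, had 1.18 and 0.918. In complex IV, the small subunit gene Cox7b had 1.03 and 0.947. In complex V, Atp5l had 1.15 and 0.836, Atp5c1 had 1.14 and 0.927, and the nuclear genes together had 1.04 and 0.950.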

How the results depend on the processing

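Values below are in the order VE over Epi cells of BELAs (A), VE over Epi cells of VE cysts (B), BELAs over Epi cysts in Epi cells (C) and BELAs over VE cysts in VE cells (D), as log2 ratios of sums, or as members called. The mitochondrial sum kept its direction in every comparison and setting, and the nuclear sum did so except in A and B. The cause of each shift was not tested. Outside mt- UMIs the nuclear sums were 0.113, 0.0498, 0.0329 and 0.0924 and the mitochondrial 0.47, 0.84, 0.11 and -0.24. Outside mt- and ribosomal protein UMIs they were -0.0317, -0.14, 0.0520 and 0.15, and 0.32, 0.65, 0.13 and -0.18, with 4, 7, 2 and 4 higher in A to D and 6 and 3 lower in B and D. Scaled by the median ratio they were 0.14, -0.12, 0.0821 and 0.28, and 0.50, 0.66, 0.16 and -0.0475, with 9, 2 and 11 higher in B to D and 2 lower in D. Thinned to 40000 UMIs they were 0.0711, 0.00419, 0.0324 and 0.0919, and 0.47, 0.82, 0.12 and -0.22. As means over cells the nuclear sums were 0.0774, 0.0239, 0.0155 and 0.0911 and the mitochondrial in A, C and D 0.46, 0.0868 and -0.19, with 3 higher in C, 3 lower in D, and mt-Cytb in C at -0.00218. Without mixed cells the nuclear sums of B and C were 0.00322 and 0.0343, and the mitochondrial 0.48, 0.82, 0.10 and -0.21. Without called doublets the mitochondrial sums of A and D were 0.46 and -0.21. With at least 3000 genes and at most 20% mt- UMIs the nuclear sums of A and C were 0.10 and 0.0223, and the mitochondrial of A, C and D 0.45, 0.10 and -0.20. Without the cap the nuclear sums of A and D were 0.0892 and 0.10, and the mitochondrial of A, B and D 0.52, 0.84 and -0.16, with 3 lower in D. In cells of 50000 to 80000 UMIs, added after seeing the data, the nuclear sums were 0.0362, -0.0296, 0.0443 and 0.0824, and the mitochondrial of A, C and D 0.53, 0.15 and -0.15, with 4 higher in C and 1 higher and 3 lower in D, but VE cysts then held 12 Epi cells. At the lower fold threshold tried, 28 and 7 members were higher and lower in A, 12 were lower in B, 8 and 3 were higher and lower in C, and 18 and 13 in D. At 2-fold the counts were 1 and 0 in A, 3 and 0 in B, 0 higher in C, and 0 and 2 in D. With 1 CPM added 2 were higher in C, and with 20 CPM 5 in A and 0 in C. With no filter on low levels 2 were lower in A, and with a mean of at least 50 CPM 0 were higher in C, where the median of mitochondrial complex I genes was -0.0119. Of single-gene values under alternatives, 546 moved beyond their counting intervals and 2058 did not. No paired analysis was possible because each group has a single replicate number and no result comes from a test. VE and Epi cells were compared within each library that holds both, and no library was left out, since each is the only one of its kind. Counting error was small beside what 1 library per condition leaves unknown.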
